A study of Mus musculus with 6 samples.

Results

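Melanocytes were described in single-cell RNA-sequencing data from mouse dorsal skin after depilation. They were chosen by measured UMI counts, with 1 rule for all 6 libraries: a barcode with 500 to 7000 detected genes and at most 10% mitochondrial (mt-) unique molecular identifiers (UMIs) was kept, and a kept barcode was called a melanocyte when Dct, Pmel, Mlana and Tyrp1 together had at least 5 UMIs and at least 12 per 10000 of its UMIs. This gave 616 melanocytes among 55177 kept barcodes, or 1.12%. The 6 libraries came from wildtype FVB males aged 55 to 57 days, whose dorsal skin had been shaved and waxed to start hair regeneration. Skin was taken at 0 h, at 4 or 16 hours, or at 2, 4 or 6 days. Skin of 2 mice per time point was digested separately, and their cells were mixed in equal numbers before capture with the 10x Chromium Single Cell 3′ kit. Each time point was therefore 1 library in which the mice could not be told apart, and undepilated skin of the later times was not analysed here. A p-value across time set the change along a smooth curve against the scatter of the 6 libraries around it, and did not measure the spread between animals.

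Melanocytes of the hair follicle derive from the neural crest. Their stem cells rest in the bulge and hair germ while the follicle is in telogen, and at the onset of anagen they divide and give rise to pigment-making cells of the hair bulb. MITF, with SOX10 and PAX3, controls the lineage, and KIT, EDNRB and MC1R receive signals from neighbouring keratinocytes and dermal cells. FVB mice are albino because their tyrosinase is inactive, so that the RNA of the pigment genes can be followed although no melanin is made.

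Start regions are shown for pigment genes that were called higher with time (below), though not all from the same time on. As background, MITF is known to bind the M-box, an element built on the letters TCATGTG; the RNA levels given here do not test its part. The stretches of the RefSeq start windows (GRCm38.p6, 250 bases before to 50 after a start) that held these letters are shown for 5 genes that rose with time and for Dct and Tyrp1, which belong to the rule. Each runs 5′ to 3′ on the gene's strand, and the capitals mark TCATGTG or its reverse complement CACATGA.
Tyr, chr7:87493513-87493574, minus strand: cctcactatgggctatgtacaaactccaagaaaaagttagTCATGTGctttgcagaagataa
Slc24a5, chr2:125068074-125068126, plus strand: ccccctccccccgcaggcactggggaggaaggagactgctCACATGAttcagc
Trpm1, chr7:64153653-64153739, plus strand: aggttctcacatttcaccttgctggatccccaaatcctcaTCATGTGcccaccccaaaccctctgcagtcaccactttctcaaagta
Mc1r, chr8:123406990-123407076, plus strand: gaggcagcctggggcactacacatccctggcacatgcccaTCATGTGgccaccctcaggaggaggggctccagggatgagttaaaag
Tspan10, chr11:120442570-120442630, plus strand: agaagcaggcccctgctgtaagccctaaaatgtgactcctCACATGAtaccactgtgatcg
Dct, chr14:118052351-118052496, minus strand: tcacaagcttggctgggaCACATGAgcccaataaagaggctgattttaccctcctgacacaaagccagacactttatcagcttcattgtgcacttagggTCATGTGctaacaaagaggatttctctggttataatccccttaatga
Tyrp1, chr4:80834126-80834212, plus strand: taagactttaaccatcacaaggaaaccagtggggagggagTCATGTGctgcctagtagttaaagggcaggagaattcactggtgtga
Of the 9 pigment, receptor and tetraspanin genes called higher with time below, 7 had a start window and 5 of these held the letters, at position -22 of Tyr, -13 of Slc24a5, -142 of Trpm1, -52 of Mc1r and -21 of Tspan10. The windows of Oca2 and Ptgds did not hold them, nor did the second of the 2 windows of Trpm1. On either strand, 1239 of all 32851 windows (3.77%) held TCATGTG. A match is a description of the sequence and says nothing of binding in these cells.

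The label was checked with genes that the rule had not used. Kit, the receptor for KIT ligand, had a UMI in 501 of the 616 melanocytes (81.3%) against 0.704% of all other kept barcodes. Pax3 was found in 540 melanocytes (87.7%) against 0.174%, and Tyr in 349 (56.7%) against 0.0623%. Sox10 was detected in 287 (46.6%) against 0.101% and Ednrb in 325 (52.8%) against 0.126%. Mitf, found in 477 (77.4%), had the smallest contrast, with a UMI in 5.97% of all other kept barcodes. Of the 616, 610 (99.0%) had a UMI of at least 1 of these 6 genes. In T cells, taken as cells that should lack the lineage genes, Pax3 had a UMI in 0.0329% and Kit in 6.45%; their median depth was between 2123 and 2788.5 UMIs in the 6 libraries, and that of melanocytes between 1983 and 6158. Defining markers of mast cells, which also use Kit, were at 0 in the melanocytes for 9 of 12 genes, Cpa3, Cma1, Mcpt4 and Tpsb2 included, and 8 of 10 Merkel cell markers were at 0.

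Most melanocytes came from a single library. From 0 h to 6 d the libraries held 21, 54, 47, 55, 358 and 81 melanocytes, so that 58.1% of them came from 4 d. At 0 h they made up 0.303% of kept barcodes (exact Clopper-Pearson 95% interval 0.188 to 0.463). The 4 h share was 0.705% (0.530 to 0.918), the 16 h share 0.538% (0.396 to 0.715) and the 2 d share 0.577% (0.435 to 0.750). Melanocytes reached 2.88% (2.60 to 3.19) in the 4 d library and fell back to 0.817% (0.649 to 1.01) in that of 6 d. The 4 d interval lay above those of the other 5 libraries, and that of 0 h lay below those of 4 h and 6 d. These intervals cover counting error only, and a share can also move with the digestion or with how many other cells were captured. No 2 melanocytes shared a barcode, and 4 of them had a barcode that also occurred in another library.

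The rule genes encode melanosome proteins: Dct and Tyrp1 are melanogenic enzymes, Pmel forms the fibrils on which pigment is laid down, and Mlana is a melanosome membrane protein. Because they chose the cells, their levels are given without a test, as UMIs per 1000000 UMIs (CPM) of the melanocytes of a library. Dct was at 2883, 3075, 3942, 3232, 7798 and 6433 CPM from 0 h to 6 d. Pmel was at 570, 1277, 386, 1861, 6637 and 4948 CPM. Mlana stood at 342, 403, 254, 1125, 3360 and 3058 CPM, and Tyrp1 at 342, 875, 508, 1195, 2197 and 1233 CPM. All of them were highest at 4 d, and Dct was the most abundant of them in every library. From 0 h to 6 d the median melanocyte had 44.8, 45.8, 47.4, 68.9, 152 and 96.7 rule UMIs per 10000. All 4 genes were detected together in 415 of the 616 cells, 305 of them at 4 d, and in 24 cells only 1 of them was found.

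The early melanocytes were shallower and lay nearer to the minimum. Their median UMI counts were 2611, 2025.5 and 1983 in the 3 early libraries, against 5178, 6158 and 4097 in the later ones. In the other kept barcodes of the same libraries the median ran from 6311.5 at 4 d to 10834 at 16 h, so that the other cells of the early libraries were not shallower. Just inside the minimum, with 5 to 6 rule UMIs or 12 to 15 per 10000, were 49 melanocytes (6, 20, 12, 3, 7 and 1 from 0 h to 6 d). Just outside it were 36 barcodes with 3 to 4 rule UMIs and 6 with 9 to 12 per 10000. Of the other kept barcodes at 4 d, 5.76% had at least 1 UMI of a rule gene, against 0.681% to 2.47% in the other libraries. In T cells, Dct had a UMI in 1.48% at 4 d and in 0 to 1.30% elsewhere. Scrublet scores how much a barcode resembles simulated doublets. Its own threshold called 1, 0, 0, 0, 677 and 0 barcodes from 0 h to 6 d, so a fixed share of the highest scores, set by the number of barcodes in each library, was marked instead. This marked 104 melanocytes, 82 of them at 4 d, and 52 (36 at 4 d) had over 1% of their UMIs from Krt5, Krt14 and Krt15.

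Changes over time were tested on the UMIs summed over the melanocytes of each library, with a spline of hours in edgeR's quasi-likelihood test and Benjamini-Hochberg adjustment at 0.05. A call stands for a change of any form along the spline. Higher and lower give the sign of its linear part, which was not tested by itself in this fit. Over all genes, 43 of 4930 (0.872%) were called higher with time and 21 (0.426%) lower. With a linear trend alone, 13 were called higher and 1 lower. The excess of higher genes depended on the settings: it was 110 higher and 124 lower with log2(hours + 1), 119 and 122 with a spline of 2 degrees of freedom, 64 and 67 without the Scrublet-marked cells, and 28 and 5 with raised marker minimums. Among the higher genes were Tyr, Oca2, Trpm1 and Mc1r of the pigment cell, and Mki67, Birc5 and Cdk1 of the cell cycle. Among the lower genes were the immediate early genes Fosb and Ier5 and the CDK inhibitor gene Cdkn1a. Of the tested genes, the median log2 ratio of the late libraries (2 d, 4 d, 6 d) to the early ones (0 h, 4 h, 16 h) was -0.11. That ratio is of mean CPM, and a sum of 0 counts as 3 UMIs, so that for a gene at 0 it is a lower bound. A low gene could pass the filter through the libraries in which it was high alone, so that counts and medians over tested list genes describe them and support no direction.

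Of 22 tested genes for pigment enzymes and melanosomes, 7 rose (Tyr, Oca2, Slc45a2, Slc24a5, Trpm1, Gpr143 and Ptgds), none fell and 15 were not called. Oca2 and Gpr143 among the 7 passed the filter only through 4 d and 6 d, so that they could be called in no other direction. The list held 36 genes, and DESeq2 called 5. Tyr, the enzyme that starts melanin synthesis (ENSMUSG00000004651, chr7:87424771-87493512), was at 65.2, 27.8, 75.3, 312, 543 and 397 CPM from 0 h to 6 d (edgeR adjusted p = 0.0041), 7.44-fold higher in the late libraries. Its 3 late values lay above its 3 early values. Trpm1, a cation channel gene of pigment cells that also hosts a microRNA, was at 16.3, 97.2, 151, 300, 1300 and 1031 CPM (edgeR adjusted p = 0.0015), 9.96-fold higher late. Slc24a5, an exchanger of the melanosome, was at 16.3, 83.3, 188, 291, 1026 and 830 CPM (edgeR adjusted p = 0.0032). In all other kept barcodes Slc24a5 was also highest at 4 d, at 13.6 CPM against 0.653 to 2.81 CPM at the other times. In T cells it was at 31.4 CPM at 4 d against 6.37 to 18.9 CPM. Trpm1 and Slc24a5 were lowest at 0 h, but there each was found in 1 of 21 melanocytes. At 16 h 10 of the 20 Slc24a5 UMIs were from 1 barcode. For both genes the step from 2 d to 4 d was the largest in CPM. The calls of Tyr, Trpm1 and Slc24a5 held without each of the 6 libraries in turn.

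Oca2, which sets melanosome pH (ENSMUSG00000030450, chr7:56239760-56536518), had no UMI in the 3 early libraries and 1 UMI at 2 d (2.34 CPM). It had 340 UMIs in the 4 d library (117 CPM, exact Poisson 95% interval 105 to 130) and 51 in that of 6 d (87.3 CPM, 65.0 to 115; edgeR adjusted p = 0.0015). With 3 UMIs in place of 0, the late libraries were at least 2.11-fold higher, the bound being low because 3 UMIs were worth 48.9 CPM at 0 h. Without 4 d or without 6 d Oca2 and Gpr143 were too low to be tested. These UMIs came from 78 of 358 melanocytes at 4 d and 10 of 81 at 6 d. Gpr143, a receptor of the melanosome membrane, had 0, 3, 0, 1, 323 and 50 UMIs (edgeR adjusted p = 0.0041). Slc45a2, a transporter gene, was at 81.5, 41.7, 65.8, 110, 233 and 315 CPM (edgeR adjusted p = 0.043); its adjusted p was 0.083 without 4 d, 0.19 without 16 h and 0.20 without 6 d. Ptgds, which encodes the prostaglandin D2 synthase, was at 554, 1506, 649, 640, 5550 and 3777 CPM (edgeR adjusted p = 0.033), so that its level at 2 d lay within the range of the early libraries; its adjusted p was 0.083 without 4 d and 0.10 without 16 h. Tspan10, a tetraspanin gene, was at 16.3, 6.94, 9.41, 11.7, 84.4 and 63.4 CPM (edgeR adjusted p = 0.035; 0.054 without 16 h), and could not be tested without 2 d, 4 d or 6 d.

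**Figure D1:**
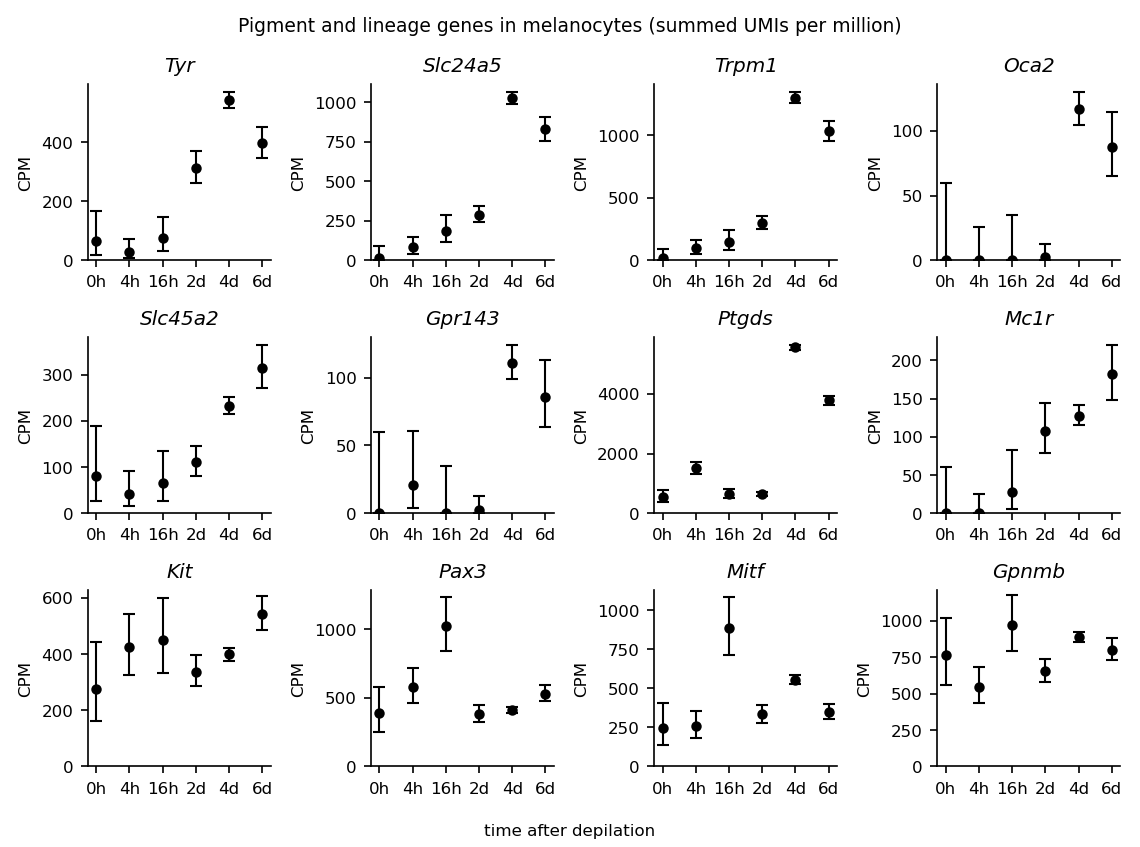
CPM of pigment and lineage genes in the summed melanocytes of each library, 1 panel per gene, with exact 95% Poisson intervals; the vertical axes are linear and start at 0, and the time points stand in order without scale. Tyr lies between 27.8 and 75.3 CPM up to 16 h and between 312 and 543 CPM from 2 d, Oca2 and Gpr143 are highest at 4 d, and Pax3 and Mitf are highest at 16 h.

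Tyr was also found in a larger share of the late cells. After each cell had been thinned to 2000 UMIs, which left out the shallower ones, a Tyr UMI was found in 1 of 17 melanocytes at 0 h (5.88%), 2 of 28 at 4 h (7.14%) and 3 of 22 at 16 h (13.6%). The shares were 21 of 46 at 2 d (45.7%), 165 of 332 at 4 d (49.7%) and 26 of 73 at 6 d (35.6%). The late intervals began at 24.7% or above, while the 0 h interval reached 28.7% and the 16 h interval 34.9%, so that 0 h overlapped with 6 d, and 16 h with 2 d and 6 d. In T cells at the same depth the Tyr share was at most 0.177%. Kit was found in 52.9% of thinned melanocytes at 0 h, 57.8% at 4 d and 56.2% at 6 d, with the highest share, 67.9%, at 4 h. Other called genes did not all follow in thinned cells. A Ptgds UMI was found in 58.8%, 89.3%, 59.1%, 37.0%, 88.9% and 79.5% of them from 0 h to 6 d, lowest at 2 d. Oca2 was found in 42 of 332 at 4 d (12.7%) and in 0 of 73 at 6 d, and Gpr143 in 7.14% at 4 h, 15.1% at 4 d and 6.85% at 6 d. Before thinning, Tyr had a UMI in 3 of 21, 4 of 54 and 8 of 47 early melanocytes and in 35 of 55, 252 of 358 and 47 of 81 late ones.

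The lineage factors and most receptors did not pass the test. None of 15 tested transcription factor genes of the lineage was called, 4 had an unadjusted p under 0.05 and DESeq2 called none. Their median late to early log2 ratio was -0.46. With log2(hours + 1) edgeR called 1 of them, Sox9, and without all marked barcodes it called 1 gene of the list lower. Mitf was at 244, 257, 884, 333, 555 and 351 CPM, and Pax3 at 391, 576, 1025, 382, 412 and 531 CPM. Both were highest at 16 h, with early and late values overlapping. Sox10 was at 114, 174, 188, 68.0, 99.9 and 178 CPM. Of 12 tested receptor genes 1 was called, Mc1r, the receptor for melanocortins. It was at 0, 0, 28.2, 108, 128 and 181 CPM (edgeR adjusted p = 0.0041), a call that held without each library in turn. Kit was at 277, 423, 452, 338, 398 and 543 CPM and Ednrb, the endothelin receptor gene, at 228, 243, 216, 178, 332 and 259 CPM, ranges in which early and late libraries overlapped.

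Of the 15 genes of the pigment list that were not called, 4 are given as examples. Mlph, a linker of melanosomes to myosin, was at 147, 174, 216, 129, 199 and 164 CPM, and Rab27a at 48.9, 55.5, 65.8, 56.3, 86.5 and 65.1 CPM. Cd63, which sorts cargo to melanosomes, was at 2118, 4200, 2389, 1453, 2582 and 2152 CPM. For each of these 3 genes the early and late values overlapped. Gpnmb, a glycoprotein of melanosomes, was likewise at 766, 548, 969, 654, 890 and 803 CPM.

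Melanocytes called cycling were found from 2 d on. A melanocyte was called cycling when, thinned to 2000 UMIs, it had at least 2 UMIs over 10 genes of G2 and M phase (Birc5, Cenpa, Cenpf, Hmgb2, Mki67, Nusap1, Prc1, Top2a, Tpx2 and Ube2c). None of the 67 early melanocytes of sufficient depth passed (0 of 17, 0 of 28 and 0 of 22). Over the 3 libraries the exact interval reached 5.36% (4.48% if 0 is counted as 3 cells). Library by library the exact intervals reached 19.5%, 12.3% and 15.4%. The 2 d library had 7 of 46 (15.2%, exact interval 6.34 to 28.9), the 4 d library 84 of 332 (25.3%, 20.7 to 30.3) and the 6 d library 10 of 73 (13.7%, 6.77 to 23.8), together 101 of 451. The interval of 6 d reached into that of 4 d, and those of 2 d and 6 d overlapped with all 3 early ones. The 4 d interval lay above them. At a minimum of 1 UMI, 5 of 17 melanocytes passed at 0 h (29.4%), 2 of 28 at 4 h and 3 of 22 at 16 h. Without thinning the shares were 9.52%, 1.85%, 2.13%, 29.1%, 42.5% and 33.3%, and at 4 d 68 melanocytes had 1 UMI and 27 had 2, next to the minimum. In T cells the thinned share was between 28.0% and 54.8% in every library, and in Langerhans cells between 6.74% and 39.4%, so that other cells of the 3 early libraries did have these UMIs.

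**Figure D2:**
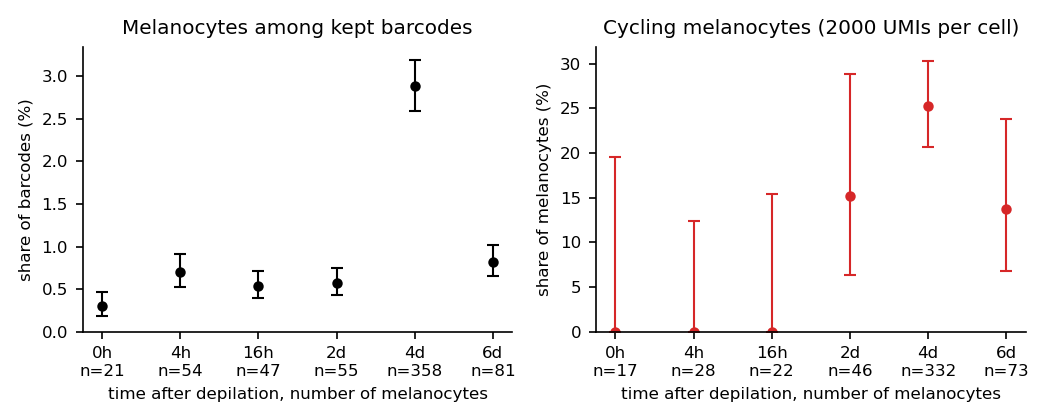
Left, melanocytes as a percentage of kept barcodes, and right, melanocytes called cycling as a percentage of those with at least 2000 UMIs, in each library; points are shares, bars exact 95% Clopper-Pearson intervals and n the number of melanocytes. The 4 d library stands apart on the left at 2.88%, and on the right the share is 0 up to 16 h and 13.7% to 25.3% from 2 d.

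In the summed counts, 11 of 26 tested G2 and M phase genes were called higher with time (Hmgb2, Cdk1, Ube2c, Birc5, Top2a, Mki67, Cenpf, Ccnb2, Cenpa, Prc1 and Stmn1) and none lower. Without 4 d, all of these but Hmgb2, Top2a and Stmn1 were too low to be tested, so that they could hardly have been called lower. Of 25 S phase genes 1 was called, Pclaf, a partner of PCNA. Mki67, a marker of dividing cells, had no UMI in the early libraries and was at 53.9, 127 and 101 CPM in the late ones (edgeR adjusted p = 0.0061). Those UMIs came from 3, 76 and 10 melanocytes. Stmn1, which regulates microtubules, was at 48.9, 6.94, 37.6, 150, 555 and 356 CPM (edgeR adjusted p = 0.0015). Of 9 tested cyclins and CDK inhibitors, Ccnd2, a D-type cyclin gene, rose from 16.3, 20.8 and 37.6 CPM to 197, 168 and 140 CPM (edgeR adjusted p = 0.023). Cdkn1a, the gene for p21, fell from 407, 826 and 433 CPM to 79.7, 104 and 211 CPM (edgeR adjusted p = 0.031). Early and late values did not overlap for Ccnd2 or for Cdkn1a. The call of Ccnd2 held without each library, while the adjusted p of Cdkn1a was 0.11 without 2 d and 0.058 without 4 d. The histone transcripts Hist1h2ap, Hist1h1b and Hist1h2ae were also called higher, but near-identical copies make their counts uncertain. Hist1h2ap stood at 803 CPM at 6 d, where 146 of 469 UMIs were from 1 barcode.

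Of the immediate early genes, Fosb and Ier5 fell. The genes of this class encode factors that are induced within minutes of a stimulus, tissue dissociation included. Of 22 tested, 2 were called lower, Fosb and Ier5, and none higher; all 22 had a late to early log2 ratio below 0, with a median of -1.45. With log2(hours + 1) 10 of the 22 were called, and without all marked barcodes 13 were called lower. Fosb was at 1157, 2110 and 2361 CPM in the early libraries and at 359, 260 and 267 CPM in the late ones (edgeR adjusted p = 0.022). Ier5 was at 456, 389, 433, 84.4, 51.8 and 80.5 CPM (edgeR adjusted p = 0.0037). Early and late values of Fosb and of Ier5 did not overlap, and both calls held without each library in turn. Egr1 was at 293, 1874, 2164, 354, 284 and 416 CPM and Fos at 2004, 5651, 4816, 954, 1585 and 1502 CPM, both highest at 4 h or 16 h (edgeR adjusted p = 0.22 and 0.68). Egr1 passed in 4 of the 6 fits without a library (0.0056 without 0 h, 0.026 without 4 h, 0.042 without 2 d and 0.0086 without 6 d), whereas Fos passed only without 0 h (0.0097). The summed list was at 15867, 27325, 28597, 6401, 7923 and 9638 CPM in melanocytes. In all other cells of the same libraries it was at 30797, 19592, 19271, 15259, 16396 and 15019 CPM, so that melanocytes were lower than the other cells at 0 h and higher at 4 h and 16 h. The part of the dissociation in these levels was not tested.

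Other genes that fell were few and mostly low. Nppb, the gene of a natriuretic peptide, was at 48.9, 236, 207, 30.5, 10.6 and 20.5 CPM (edgeR adjusted p = 0.0031), the early sums being 3, 34 and 22 UMIs. At 4 h 17 of the 34 Nppb UMIs were from 1 barcode. Sphk1, a sphingosine kinase gene, was at 212, 90.2, 94.1, 11.7, 8.24 and 17.1 CPM (edgeR adjusted p = 0.0041; 0.061 without 0 h). Fn1, which encodes fibronectin, was at 65.2, 111, 141, 51.6, 13.0 and 29.1 CPM (edgeR adjusted p = 0.020; 0.88 without 4 d, 0.13 without 16 h, 0.074 without 6 d and 0.075 without 2 d). Early and late values of Nppb, Sphk1 and Fn1 did not overlap, but at 0 h Nppb rested on 3 UMIs and Fn1 on 4. Abl2, Tubb6, Angptl4, Sertad1, Slc27a1, Zfp131 and Arid5a were the rest of the 12 with the steepest fall, and each of these 7 lost its call without at least 1 library, Abl2, Arid5a, Sertad1 and Slc27a1 without 4 d among others. Among the genes that rose, Cthrc1, a secreted collagen triple helix protein, had no UMI in the early libraries and was at 16.4, 105 and 142 CPM later (edgeR adjusted p = 0.0027), and could not be tested without 4 d or 6 d.

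**Figure D3:**
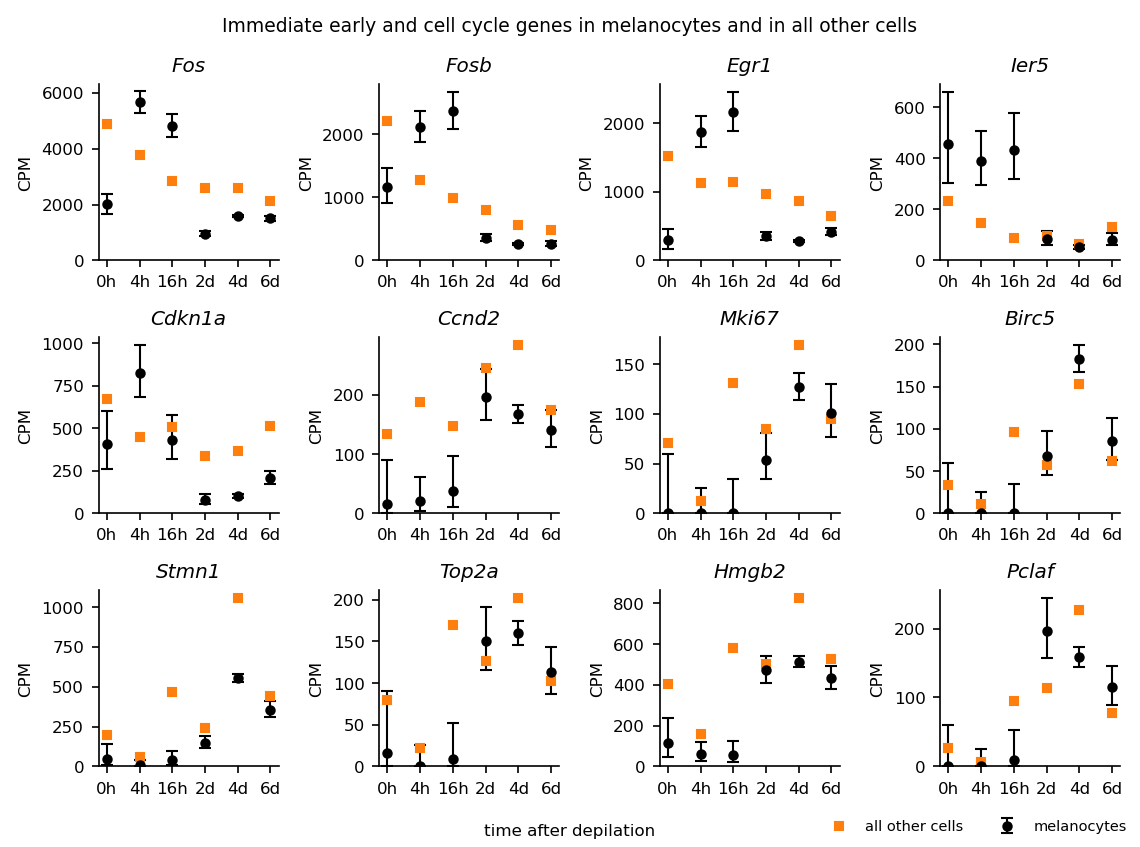
CPM of immediate early genes, cell cycle genes and Cdkn1a in the summed melanocytes (black circles, exact 95% Poisson intervals) and in all other cells (orange squares) of each library, on linear axes from 0. In melanocytes Fosb and Ier5 are lower and Mki67 and Ccnd2 higher from 2 d, and Mki67 is at 0 up to 16 h.

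Further pathways were counted over lists, most of which had few tested genes. None of 8 Wnt target genes, 4 Notch pathway genes, 10 BMP and TGF-beta targets, 8 MAPK feedback genes and 20 ribosome biogenesis genes was called by edgeR or by DESeq2. In this order, 1, 2, 2, 1 and 2 of them had an unadjusted p under 0.05. With log2(hours + 1) edgeR called 2, 0, 1, 1 and 1 of them. Without all marked barcodes it called 2 BMP and TGF-beta targets higher, and 1 ribosome biogenesis gene higher and 1 lower. Of 10 P53 targets, edgeR called Cdkn1a alone. Of 12 glycolysis and hypoxia genes edgeR called none and DESeq2 called 1 (3 had an unadjusted p under 0.05), and all 12 had a late to early log2 ratio above 0, with a median of 1.00. With log2(hours + 1) edgeR called 2 of them, and without all marked barcodes 3 genes of the list higher. Gapdh, a glycolytic enzyme gene, was at 130, 396, 273, 809, 1202 and 808 CPM (edgeR adjusted p = 0.11), and its late values lay above its early ones. Of 14 chaperone genes 2 were called higher, the near-identical Hspa1a and Hspa1b, whose reads cannot be safely divided between them. Hspa1a was at 228, 34.7, 18.8, 70.3, 260 and 712 CPM (edgeR adjusted p = 0.0059), and in the other cells it was likewise highest at 6 d, at 472 CPM. Of 15 interferon and MHC class I genes, Isg15 was called lower (130, 146, 56.4, 11.7, 11.3 and 120 CPM; edgeR adjusted p = 0.0027; 0.099 without 4 d), with 6 d back in the early range. The direction of Isg15 turned with raised marker minimums (trend 0.41, edgeR adjusted p = 0.012), and its call was lost with the same number of melanocytes per library (0.17) and with a linear trend (1.0). Of 22 adhesion and migration genes Tspan10 was called, and of 8 secreted factor genes Ptgds.

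The Bcl-2 family regulates apoptosis and is the subject of the study from which these libraries come. None of its 6 tested genes was called over time in melanocytes by edgeR or DESeq2, and 2 had an unadjusted p under 0.05. Without all marked barcodes edgeR called 1 gene of the family lower. Bcl2, a survival gene on which melanocyte stem cells are known to depend, was at 586, 271, 489, 120, 156 and 265 CPM, so that the values of 4 h and 6 d lay close together (edgeR adjusted p = 0.46; 0.014 without 4 h). Mcl1, the gene that the study deletes in other mice, was at 749, 784, 423, 295, 229 and 301 CPM in melanocytes and at 428, 326, 265, 289, 202 and 202 CPM in all other cells. The pro-apoptotic Bax was at 16.3 CPM at 0 h, 1 UMI, and between 141 and 278 CPM afterwards.

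Markers of other cell types were followed in the same sums. The 20 keratinocyte markers together made 10638, 15322, 7789, 10242, 9670 and 14973 CPM in melanocytes and 40556 to 61795 CPM in all other cells, Lgals7 being the most abundant in melanocytes. Of 18 tested, 2 were called higher with time, Krt17 (97.7, 62.5, 37.6, 328, 992 and 1202 CPM) and Krt79 (48.9, 6.94, 56.4, 150, 460 and 860 CPM), both at an edgeR adjusted p of 0.0015. At 6 d 256 of the 502 Krt79 UMIs were from 1 barcode. Krt14 was at 652, 2319, 2389, 3160, 2216 and 2541 CPM and did not pass. Of 3 tested inner root sheath and matrix genes 1 was called higher, Mt4. It could not be tested without 2 d, 4 d or 6 d, so that it could hardly have been called lower. At 2 d 16 of its 22 UMIs were from 1 barcode. The T cell markers summed to 16, 0, 19, 138, 139 and 14 CPM, and none of them, nor of the Merkel cell markers, was abundant enough to be tested. Neither edgeR nor DESeq2 called any of 6 tested Schwann cell, 3 Langerhans and myeloid, 2 fibroblast and 1 mast cell markers or of 2 ligand genes. In this order, 2, 2, 2, 0 and 1 of these had an unadjusted p under 0.05. With log2(hours + 1) edgeR called 2, 1, 1, 0 and 1 of them. Without all marked barcodes it called 1 Schwann cell marker and 1 ligand gene lower. It then called 2 Langerhans and myeloid and 2 fibroblast markers higher. When barcodes marked by Scrublet, by keratin or by T cell or Langerhans cell markers were left out, 206 genes were called over time in place of 64, and the pigment list had 8 genes called higher in place of 7, while 13 immediate early genes were called lower in place of 2. Of the 64 genes, 58 were among the 206.

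Cycling and non-cycling melanocytes were compared within the libraries that had at least 10 of each, 4 d and 6 d. With the library as a block, edgeR called 358 of 7834 genes higher in cycling cells (4.57%) and 108 lower (1.38%); with DESeq2 size factors it was 253 higher and 39 lower, and DESeq2's own test called 77 higher and 1 lower (Cst6). The 10 marker genes had chosen the classes and were left out. All 41 other tested G2 and M phase genes and 35 of 45 S phase genes were higher, as follows from how the cells were chosen. Cdk1, the mitotic kinase gene, had a log2 fold of 4.77 ± 0.33 (SE) and Rrm2, a ribonucleotide reductase subunit gene, of 3.53 ± 0.35 (edgeR adjusted p = 1.4e-44 and 7.5e-22). With 4 d and 6 d alone the fit left 1 residual degree of freedom. Neither the SE nor the p-value of this comparison measures the spread between animals. Cycling cells were deeper, with a median of 12098 against 5359 UMIs at 4 d and 12848 against 4097 at 6 d. Scrublet scores differed too: 43 of 84 cycling and 207 of 248 non-cycling melanocytes at 4 d were free of the doublet mark, and 6 of 10 and 55 of 63 at 6 d. Markers of other cell types were called as well. Of 4 tested Langerhans and myeloid markers Cd74, the MHC class II invariant chain gene, was higher in cycling cells (log2 fold 2.65 ± 0.38, edgeR adjusted p = 1.8e-10), at 150 against 20.1 CPM at 4 d but 7.20 against 9.25 CPM at 6 d. Of 18 keratinocyte markers Lhx2 was higher and Krt79 and Krt10 were lower, and Col1a2 was lower among 6 fibroblast markers. The part of other cells in this comparison was not tested.

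Of 32 tested pigment and melanosome genes edgeR called 6 lower and none higher, and DESeq2 called none of the 6. Of 23 lineage transcription factors edgeR called 3 lower (Pax3, Zeb2 and Jun) and 1 higher (Sox9). Jun lost its call without 6 d, with 2 d added (adjusted p = 0.42). Pax3 was at 268 CPM in cycling and 484 in non-cycling melanocytes at 4 d and at 274 and 608 at 6 d, a log2 fold of -0.98 ± 0.20 (SE; edgeR adjusted p = 5.3e-05; DESeq2 adjusted p = 0.38). The edgeR call held when 2 d was added and any library was left out in turn. Mc1r was at 84.4 and 156 CPM at 4 d and at 122 and 206 CPM at 6 d (log2 fold -0.85 ± 0.25, edgeR adjusted p = 0.015), and Mlph at 136 and 235 and at 101 and 183 CPM (edgeR adjusted p = 0.016). Slc45a2, Lyst and Cd63 were lower in both libraries as well. In the same fits with 2 d added, the adjusted p of Mc1r was 0.56 without 4 d and 0.17 without 6 d, that of Mlph 0.36 and 0.13, that of Slc45a2 0.88 and 0.60 and that of Lyst 0.34 and 0.12; for Cd63 it was 0.32 without 4 d. Ptgds was lower in both libraries as well (3828 against 6636 CPM and 3348 against 3985 CPM; log2 fold -0.54 ± 0.12, edgeR adjusted p = 0.0003), but its sign turned, with 2 d added, without the Scrublet-marked cells (log2 fold 0.11), without 4 d (0.32) and without 6 d (0.03). Gpr143 was lower at 4 d, 55.7 against 147 CPM, but not at 6 d, 101 against 83.2 CPM.

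Beyond these, Vim, an intermediate filament gene, was lower in cycling cells (log2 fold -0.67 ± 0.12, edgeR adjusted p = 2.6e-06), as were Zeb2 and Bcl2. Vim kept its call without each library, whereas Bcl2 and Zeb2 lost theirs without 4 d (adjusted p = 0.056 and 0.33) and without 6 d (0.33 and 0.13). Sox9 was higher, at 94.6 against 59.6 CPM at 4 d and 230 against 109 CPM at 6 d (log2 fold 0.82 ± 0.26, edgeR adjusted p = 0.030). With 2 d added, its edgeR adjusted p was 0.25 without 4 d and 0.41 without 6 d. The paper also uses SOX9 as a marker of hair follicle stem cells, and the part of such cells in this difference was not tested. Tyr, which was not called, was at 390 and 640 CPM at 4 d and 475 and 384 CPM at 6 d, so that the libraries differed in direction (edgeR adjusted p = 0.55). Kit was at 336 and 429 CPM at 4 d and 547 and 546 CPM at 6 d (edgeR adjusted p = 0.73). The largest folds outside the cycle lists belonged to Pimreg, Troap, Espl1, Depdc1a, Ncapg and Neil3, genes of mitosis, chromosome segregation or DNA repair, and to the histone transcripts Hist1h2ap and Hist1h2ae. The lowest were Psapl1, Cpeb3, Tbc1d22a, Sdr16c6, Rarres1, Elovl6, Grik3 and Nupr1, most of them under 50 CPM. With 2 d added, the adjusted p of Psapl1, Sdr16c6, Nupr1 and Elovl6 was 1.0, 0.42, 0.82 and 0.31 without 6 d. At 4 d 1 barcode held 27 of 61 Psapl1 UMIs, 23 of 68 Sdr16c6 UMIs and 26 of 46 Rarres1 UMIs. For Elovl6, a fatty acid elongase gene, 300 of 513 UMIs at 4 d were from 1 barcode.

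**Figure D4:**
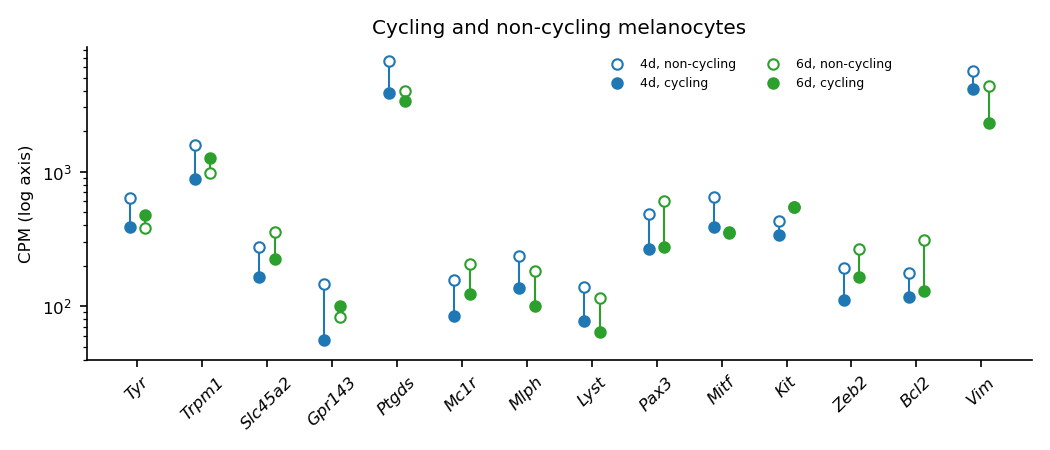
CPM (log axis) of 14 genes in cycling (filled) and non-cycling (open) melanocytes of the 4 d (blue) and 6 d (green) libraries, a line joining both classes of a library. Pax3, Mc1r, Mlph and Vim are lower in cycling cells of both libraries, whereas Tyr, Trpm1 and Gpr143 are lower at 4 d and higher at 6 d.

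Whether a time course was particular to melanocytes was tested against all other kept cells of the same libraries, as the interaction of the spline with the cell class over 12 sums. It was called for 106 of 15447 genes (0.686%). Trpm1 had the smallest adjusted p among the pigment genes (edgeR adjusted p = 3.8e-08), a call that held without each library in turn, and Ptgds followed (0.00018; 0.79 without 0 h). Mc1r (0.023), Rab38 and Slc7a11 were called too. The call of Mc1r was lost without any 1 of the 6 libraries (0.067 to 0.98), and Slc7a11 had no more than 42.8 CPM in any library. Tyr and Oca2, which are at or near 0 in the other cells, did not pass this test, and neither did Slc24a5. This does not show that their courses were alike. Met, the receptor for hepatocyte growth factor, was at 16.3, 20.8, 0, 25.8, 76.2 and 65.1 CPM in melanocytes and at 29.4, 58.7, 29.1, 24.5, 16.5 and 21.3 CPM in all other cells (edgeR adjusted p = 0.00018; 0.79 without 4 d and 0.098 without 16 h). It was above the other cells at 4 d and 6 d and close to them at 2 d, where its 11 UMIs made 25.8 CPM. In the early libraries Met had 1, 3 and 0 UMIs, too few to set against the other cells.

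Several non-pigment genes also ran apart from the other cells. Ccnd1, a D-type cyclin gene, was at 16.3, 13.9, 28.2, 110, 104 and 41.1 CPM in melanocytes and at 64.3, 259, 161, 114, 186 and 100 CPM elsewhere (edgeR adjusted p = 0.018). It was highest at 4 h in the other cells, and in melanocytes it was highest at 2 d and 4 d, whose counting intervals overlapped. The call of Ccnd1 was lost without any of the libraries but 0 h (0.13 to 1.0). Npm1, a nucleolar gene, was at 912, 1361, 1402, 2716, 2589 and 2085 CPM against 1032, 2546, 1434, 1102, 1781 and 1182 CPM (edgeR adjusted p = 0.0007; 0.064 without 4 h), again highest at 4 h elsewhere and at 2 d and 4 d, with overlapping intervals, in melanocytes. Bcl2 was called (edgeR adjusted p = 0.0043), as was Zeb2 (456, 396, 320, 122, 163 and 241 CPM; edgeR adjusted p = 0.0001), the adjusted p of each being 1.0 without 4 d; that of Zeb2 was also 1.0 with raised marker minimums, and against T and Langerhans cells the sign of Zeb2 turned (0.12); the call of Bcl2 was lost without 16 h, 2 d or 6 d as well (0.30 to 0.57). Tgfb2 was at 261, 83.3, 28.2, 28.1, 14.8 and 49.7 CPM (edgeR adjusted p = 0.0073), a call that held only without 16 h among the libraries left out. Also called were the keratinocyte markers Krt14, Krt17, Krt79, Krt1, Krt10, Lgals7 and Lhx2. The steepest differences included Mki67, Birc5 and Cdk1, whose calls were lost without 4 d or 16 h among others, and Vcan, Cntfr, Selenom, Sulf2 and Hmcn1, for which the other cells rose. Of these 5, Sulf2 kept its call without each library and Cntfr in none of the 6 fits. Vcan and Hmcn1 lost theirs without 4 d (adjusted p = 1.0 and 0.69) and without 6 d (0.050 and 0.16), and Selenom without 4 d (0.16). Rptn and Klk6 were called on 7 and 24 UMIs from 1 barcode at 2 d, and Calhm6 on 4 UMIs of 1 cell at 0 h.

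**Figure D5:**
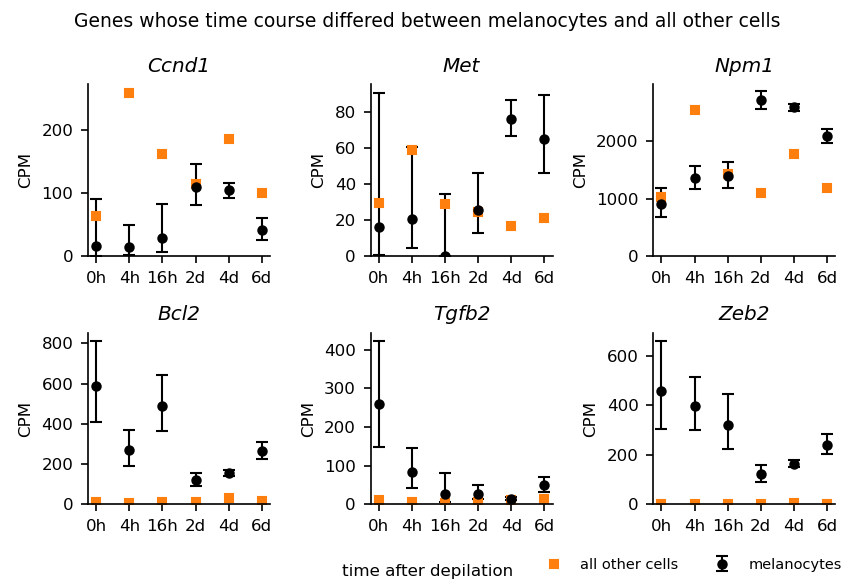
CPM of 6 genes whose time course differed between the summed melanocytes (black circles, exact 95% Poisson intervals) and all other cells (orange squares) of each library, on linear axes from 0. Ccnd1 and Npm1 are highest at 4 h in the other cells and at 2 d and 4 d in melanocytes, and Met rises above the other cells at 4 d.

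Neighbouring time points were set side by side without a test. Of genes with at least 100 CPM in the higher library, 861 of 2039 (42.2%) differed by at least 2-fold between 0 h and 4 h, 366 of 2025 (18.1%) between 4 h and 16 h and 514 of 1880 (27.3%) between 16 h and 2 d. It was 141 of 1616 (8.73%) between 2 d and 4 d and 72 of 1656 (4.35%) between 4 d and 6 d. On thinned cells the 5 shares were 45.9%, 33.3%, 36.9%, 17.1% and 10.6%. The summed melanocytes differed in depth, from 61434 UMIs at 0 h to 2916253 at 4 d. Counting error alone takes more genes past 2-fold where a sum is small. Thinning did not level this, since 17 cells were summed at 0 h and 332 at 4 d. These shares therefore do not rank the steps by how much the melanocytes changed. From 16 h to 2 d Pclaf and Top2a were among the 6 genes with the largest rise, and from 2 d to 4 d Oca2, Gpr143, Ptgds and Cthrc1 were. From 4 d to 6 d Ube2c, Cenpf and Cenpa, genes of mitosis, were among the 6 with the largest fall. Some of the others rested on a single barcode. At 2 d 3774 of the 3881 UMIs of Cst6, a protease inhibitor gene, and all 163 of Klk10 came from 1 barcode, which Scrublet marked.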

How the data were processed

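Raw UMI counts per gene and barcode were deposited, 1 filtered matrix per library, which the authors made with Cell Ranger 6.1.2 on mm10; annotation version and intron setting are not given in the sources used here. Library totals ran from 72634390 to 112370376 UMIs. Members and 28 gene lists were chosen with earlier results of these data known. Barcodes were filtered, and UMIs of members were summed per library (61434, 144141, 106375, 426965, 2916253 and 584558 from 0 h to 6 d), symbols listed more than once being left out. edgeR 4.0.16 (R 4.3.3) fitted hours as a natural cubic spline (3 degrees of freedom) after filterByExpr and TMM, with robust quasi-likelihood tests and Benjamini-Hochberg adjustment over all genes tested. Residual degrees of freedom were 2 (time course, difference) and 1 (cycling). DESeq2 1.42.0, other curves, filters, scalings and marker minimums were alternatives, and doublets were scored with Scrublet in scanpy 1.11.5 and the highest scores marked but kept. Genes named are the 12 called over time in each direction with the steepest trend and at least 100 CPM, the 8 steepest in the other tests, the 6 with the largest ratio between neighbours and called or most abundant list members. Genes given beside these, such as list members not called, were chosen after their values were seen. A sum of 0 counted as 3 UMIs. The fits were tested on simulated data, in which the test of the difference recovered the smallest share of changed genes. Intervals (95%) cover counting error only. Some genes are not reported here.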

Additional observations from a re-analysis of the deposited data

Results flagged for a closer look

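The time course of 106 genes differed between melanocytes and all other cells by the test of the difference itself (edgeR, interaction of the spline with the cell class). Of the gene lists, Trpm1 (adjusted p = 3.84e-08), Mc1r (0.0225), Met (0.000182), Ccnd1 (0.0184), Bcl2 (0.00425), Tgfb2 (0.00731), Npm1 (0.000698) and Zeb2 (0.000103) are singled out for this difference, each by edgeR with Benjamini-Hochberg adjustment. Several of these calls rest on single libraries: of the 6 fits without a library Mc1r was called in 0, Ccnd1 and Tgfb2 in 1, Bcl2 in 2, Met in 4, Npm1 and Zeb2 in 5 and Trpm1 in 6. Against T and Langerhans cells the sign of Zeb2 turned. With 1 library at each time point, groups were too small for a check for single outlying samples.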

How the results depend on the processing

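The 64 genes called over time in melanocytes (43 higher) became 241 (119 higher) with a spline of 2 degrees of freedom, 14 (13) with a linear trend, 234 (110) with log2(hours + 1), 176 (84) with time ranks, 152 (113) without the filter on low counts, 131 (64) without the highest Scrublet scores, 203 (105) without keratin-rich members, 206 (100) without all marked members (chosen after seeing the data) and 33 (28) with both marker minimums raised. Leaving out each library gave 35 (without 4 d) to 182 genes (without 4 h). The 466 genes of the cycling contrast became 283 with 2 d added, 78 with DESeq2 (77 higher and 1 lower) and 292 with DESeq2 size factors (253 higher). They became 242 with lower minimums, 75 on thinned cells and 69 on thinned cells with 2 d. With cycling from 1 UMI they became 219, but 2 d, with 19 cycling and 27 non-cycling cells, then met the minimum of 10 too. With 2 d added they were 180 with cycling from 4 UMIs and at least 4 cells of each class, 233 with raised minimums and 232 without keratin-rich members; leaving out a library gave 122 (without 4 d) to 466 genes, and 187 without 6 d. The 106 genes of the difference became 32 with DESeq2, 69 against T and Langerhans cells, 43 with raised and 229 with lower minimums, and 24 (without 4 d) to 173 (without 0 h) with a library left out. The melanocyte share became 0.130%, 0.287%, 0.229% and 0.420% at 0 h, 4 h, 16 h and 2 d with raised minimums, 0.966% at 4 h with lower ones, and 2.50% without the highest Scrublet scores and 1.92% at 5% mt- UMIs at 4 d. The cycling share from 1 UMI was 29.4% at 0 h and 41.3%, 45.8% and 34.2% in the late libraries, from 4 UMIs 14.5% at 4 d, without thinning 29.1%, 42.5% and 33.3% in the late libraries, and without the highest Scrublet scores 17.2% at 4 d. Past 3-fold were 18.8%, 4.99%, 9.41%, 2.78% and 1.39% of genes between neighbouring times; the 2-fold share of 16 h against 4 h was 32.5% with raised minimums and 33.3% on thinned cells, and on thinned cells it was 17.1% for 4 d and 10.6% for 6 d. Signs turned for Isg15 over time with raised minimums (trend 0.41). In the cycling contrast they turned for Gpr143 (-1.42 to 0.11 with a library left out, the highest without 4 d; 0.17 and 0.14 on thinned cells), Ptgds (-0.54 to 0.32 with a library left out; 0.11, 0.0079 and 0.072 without Scrublet-marked, keratin-rich or all marked members) and Fos (-0.73 to 0.30 with a library left out, the highest without 6 d). In the difference they turned for Zeb2 against T and Langerhans cells (0.12), Calhm6 (4.15 with raised minimums; -170.6 to 4.48 with a library left out) and Rptn (-4.97 with log2(hours + 1), -1.98 without the highest Scrublet scores; -2.32 to 7.36 with a library left out). The cause was not tested. No paired analysis was possible because each time point is 1 library, as far as the comparison of times goes; the cycling contrast and the difference were fitted within libraries. With 10 cells of each class, the cycling contrast left fewer than 2 libraries under raised minimums, without marked members or with cycling from 4 UMIs, and these were run only with fewer cells.

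The early libraries hold 21, 54 and 47 melanocytes. There 3 UMIs are worth 48.9, 20.8 and 28.2 CPM, against 1.03 CPM at 4 d. Levels below these rest on fewer than 3 UMIs, and a gene without a UMI is not shown to be absent. Early members are shallower, and the minimum acts on genes of the same programme as the pigment list.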

Other observations

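Ligands that act on melanocytes were looked up in all other kept cells, outside any comparison of the report. Kitl, the ligand of KIT, was at 24.2, 36.1, 21.6, 25.4, 27.6 and 28.4 CPM from 0 h to 6 d. Edn1 was highest at 0 h (33.9 CPM) and 6 d (22.5 CPM) and lowest at 4 h (3.32 CPM), while Edn2 was highest at 4 d (20.3 CPM). Edn3 had no UMI before 4 d and was at 1.36 CPM there and at 0.484 CPM at 6 d. Nrg1, a ligand of ERBB3, ranged from 4.78 CPM at 4 d to 90.7 CPM at 4 h.

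Npy, the neuropeptide Y gene, was at 810 CPM in melanocytes at 6 d against at most 104 CPM before, but 212 of its 473 UMIs at 6 d were from 1 barcode.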
